A study of Mus musculus with 8 samples.

Results

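The genes described here are 9 members of the AP-1 and BATF group of transcription factors, namely *Jun*, *Junb*, *Jund*, *Fos*, *Fosb*, *Fosl2*, *Batf*, *Batf3* and *Atf3*. They were found by gene name among the 52636 rows of the deposited expression table, and each was on the table. RNA was sequenced from splenic Tregs (CD3+ CD4+ GFP+) and Tconvs (CD3+ CD4+ GFP-) sorted from mice with the Foxp3-eGFP reporter, with 2 libraries in each of 4 groups. Control Tregs and control Tconvs came from CD27+/- mice. CD70Tg Tregs and CD70Tg Tconvs came from CD11c-*Cd70*tg;CD27+/- mice. In these, the CD70 ligand of CD27 is driven by the CD11c promoter, which the paper uses for expression in dendritic cells. Whether the sorted T cells expressed the transgene was not tested. All 4 groups thus carried 1 copy of CD27 and the reporter, and mice aged 6 to 8 weeks were used. The Tconvs were depleted with an anti-CD25 antibody before sorting and the Tregs were not, so that subset and purification cannot be told apart. Libraries are called 1 and 2 here in the order of their columns, which is a name and no pairing, and nothing states that the 2 libraries of a group came from separate mice. The p-values therefore measure only the spread between these samples, which may be technical.

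AP-1 is a dimer of basic leucine zipper proteins. Jun proteins pair with each other or with Fos proteins, and the dimer binds a short DNA element that is occupied soon after T cell receptor and costimulatory signals. BATF, BATF3 and ATF3 belong to the same family of zipper proteins. BATF and BATF3 have no transactivation domain of their own, pair with Jun proteins, and bind DNA with IRF4 or IRF8 at composite elements. In T cells, NFAT and AP-1 act together on cytokine genes, and BATF is needed for effector Tregs in tissues. *Fos* and *Jun* are also immediate-early genes, whose transcripts are known to rise within minutes when tissue is dissociated or cells are sorted.

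The deposited values were brought to a common depth of 20 M reads and rounded up, and the low values of a library show what 1 of its reads is worth. On that scale, the reads on genes ranged from 6.94 to 33.28 M in the Tconv libraries and from 1.91 to 4.57 M in the Treg libraries. CD70Tg Tconv library 2 was the deepest and CD70Tg Treg library 1 the shallowest. The floor, set at 3 reads, ranged from 1.8 to 8.6 in Tconvs and from 13.1 to 31.3 in Tregs. The labels give no sequencing batch. *Foxp3*, *Il2ra*, *Ikzf2*, *Ctla4* and *Tnfrsf18*, the 5 markers of Tregs, were all higher in Tregs than in Tconvs in both genotypes, and their summed value was 62848 to 70773 in Tregs against 4581 to 6168 in Tconvs. Malat1, a nuclear RNA, made up 0.0373 to 0.0631% of the values in Treg libraries and 0.00199 to 0.00723% in Tconv libraries.

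The promoter of *Jun*, the member that passed the test with CD70Tg in both subsets, is shown because the calls turn on this gene and because it holds a motif that was searched. The sequence is the 250 bases before the RefSeq start on GRCm38.p6, given 5′ to 3′ on the strand of the gene. *Jun* is at chr4:95049034-95052222 on the minus strand and has a single exon in GENCODE M21. Its printed bases are chr4:95052223-95052472, and the capitals mark TGACATCA, a variant of the AP-1 element, with its first base at position -45 from the start.
Jun: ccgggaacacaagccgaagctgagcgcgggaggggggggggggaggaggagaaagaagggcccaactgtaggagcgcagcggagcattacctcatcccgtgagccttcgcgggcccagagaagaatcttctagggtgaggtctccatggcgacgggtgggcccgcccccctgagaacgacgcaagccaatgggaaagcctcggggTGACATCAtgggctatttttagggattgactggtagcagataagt

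This motif, a motif of 2 GAAA runs, the AP-1 element TGANTCA, the CRE-type element TGACGTCA and the CArG box bound by SRF were searched on both strands of 27025 promoters, from 250 bases before to 50 bases after the start. TGACATCA was in 3.76% of all promoters and, of the 9 members, in that of *Jun*. The motif of 2 GAAA runs with 2 bases of any kind between them, an element bound by interferon regulatory factors, was in 3.49% of all promoters and, of the 9 members, in that of *Fosl2* (chr5:32135801-32157842, plus strand), with its first base at position -221 on the opposite strand. The RefSeq start of *Fosl2* lies downstream of its GENCODE M21 start, so that this window is inside the first exon of the GENCODE gene. The RefSeq starts of *Batf3* and *Atf3* also lie downstream of their GENCODE starts and that of *Jund* lies upstream, so that the windows of these 4 genes do not reach the GENCODE starts. TGANTCA was in 7.93%, TGACGTCA in 1.88% and the CArG box in 1.57% of all promoters, and these letters were in none of the 9 windows, which says nothing of the bases outside them. A match is a description of letters and not a bound site.

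Per kilobase of exon, the 9 genes spanned 3 orders of magnitude. The level was read as the value per kb of merged exon length (GENCODE M21). *Jund* had the highest mean in each of the 4 groups, from 5088 in CD70Tg Tconvs to 7268 in CD70Tg Tregs. *Junb* followed (1943 in control Tconvs to 5320 in CD70Tg Tregs) and *Batf* next (947 to 2202 in the same groups). *Jun* ranged from 109 to 896 and *Fos* from 78.7 to 382 in these groups. *Fosl2* lay between 16.3 and 40.6 and *Fosb* between 6.65 and 25.2 over the 4 groups. *Batf3* (3.76 to 13.5) and *Atf3* (2.55 to 11.1) were lowest, and their libraries overlapped in every group. *Jun* and *Fos* overlapped in both Tconv groups and were apart in both Treg groups, *Jund* and *Junb* overlapped in CD70Tg Tconvs, and *Fosl2* and *Fosb* overlapped in control Tregs. All other neighbours in the order were apart in their libraries.

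**Figure D1:**
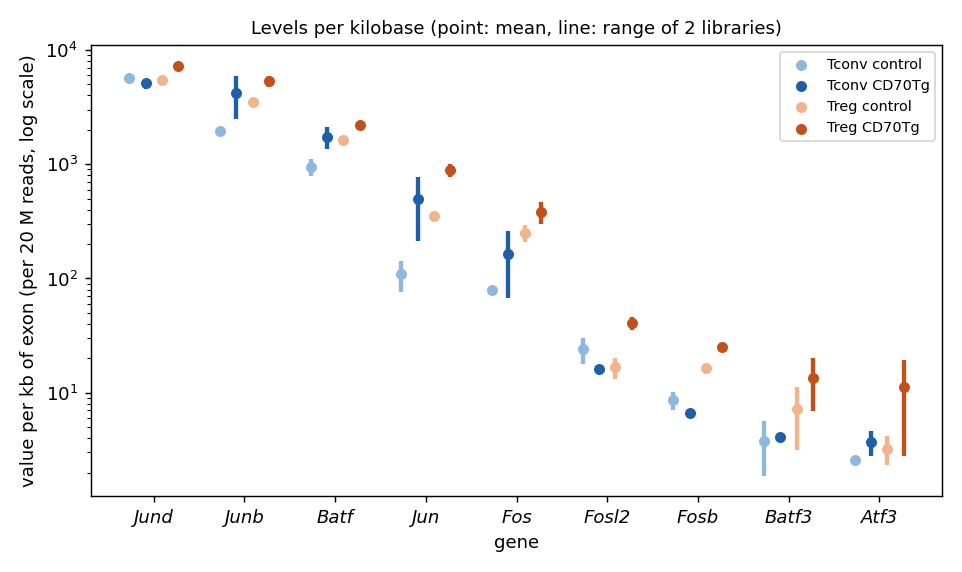
Value per kilobase of merged exon (per 20 M reads, log scale) of the 9 genes in the 4 groups, with points for the mean of 2 libraries and lines for their range. *Jund*, *Junb* and *Batf* lead in each group, and *Batf3* and *Atf3* are lowest with overlapping ranges.

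The make-up of the Jun family differed between libraries. Of the summed level per kb of *Jun*, *Junb* and *Jund*, *Jund* took 74.3 and 72.5% in control Tconvs, 62.9 and 45.8% in CD70Tg Tconvs, 60.9 and 57.1% in control Tregs, and 56.8 and 51.4% in CD70Tg Tregs. *Jun* took 0.936 and 1.95% in control Tconvs and 6.16 and 7.08% in CD70Tg Tregs. The share of *Jun* was 2.91 and 6.34% in CD70Tg Tconvs and 3.41 and 4.19% in control Tregs. *Jund* thus had the smallest share in CD70Tg Tconv library 2 and the largest in the control Tconvs.

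*Jun*, the founding partner of AP-1 dimers, had values of 245 and 450 in control Tconvs, 675 and 2475 in CD70Tg Tconvs, 1029 and 1226 in control Tregs, and 2487 and 3230 in CD70Tg Tregs. In both subsets the CD70Tg libraries lay above the control libraries, and the highest values were those of CD70Tg Tregs. CD70Tg Tconv library 2 was 3.67 times library 1 of the same group. *Jun* shares 7.28% of its exon length with *Junos* on the opposite strand, and whether reads were counted by strand is not stated in the sources used here. *Junos* had 32 and 59, 113 and 364, 132 and 167, and 377 and 446 in the same order of groups.

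*Junb*, which pairs with BATF in T helper cells, had 4674 and 4269 in control Tconvs, 5720 and 13468 in CD70Tg Tconvs, 7784 and 8166 in control Tregs, and 10804 and 13680 in CD70Tg Tregs. The CD70Tg libraries were again above the controls in both subsets, and CD70Tg Tconv library 2 reached the level of CD70Tg Tregs. *Junb* shares 7.52% of its exon length with *Prdx2*, whose values were 2163 to 3353 over the 8 libraries. *Jund*, a Jun protein made in resting cells, had 10175 and 8770 in control Tconvs, 7615 and 9360 in CD70Tg Tconvs, 9613 and 8727 in control Tregs, and 11985 and 12261 in CD70Tg Tregs. CD70Tg Tregs were above all 6 other libraries, which overlapped each other. Over 52.6% of its exon length, *Jund* lies opposite *Gm11175*, which had 5233 to 7841 over the 8 libraries with its 2 highest values in CD70Tg Tregs, and without strand the reads of these 2 genes cannot be told apart.

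*Fos*, the partner of Jun in the classical dimer, had 171 and 199 in control Tconvs, 159 and 613 in CD70Tg Tconvs, 495 and 684 in control Tregs, and 711 and 1088 in CD70Tg Tregs. All Treg libraries but library 1 of the controls exceeded every Tconv library, and CD70Tg Tconv library 2 was 3.86 times library 1, which lay below both controls. *Fosb*, a related Fos protein, had 64 and 44, 38 and 45, 112 and 92, and 168 and 147 in the same order of groups. The Treg libraries were above all Tconv libraries, and the CD70Tg Tregs above the control Tregs. *Fosb* rested on 13 reads in CD70Tg Tconv library 1 and on 16 to 27 reads in each Treg library. *Fosl2*, which encodes FRA-2 and is known to restrain the plasticity of Th17 cells, had 292 and 172 in control Tconvs, 168 and 147 in CD70Tg Tconvs, 195 and 127 in control Tregs, and 345 and 441 in CD70Tg Tregs. CD70Tg Tregs were above all other libraries, and CD70Tg Tconvs just below their controls.

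*Batf* had 1565 and 1099 in control Tconvs, 1919 and 2992 in CD70Tg Tconvs, 2320 and 2264 in control Tregs, and 3125 and 3067 in CD70Tg Tregs. The CD70Tg libraries were above the controls in both subsets and the libraries of each Treg group lay close together. *Batf3*, known for its part in dendritic cell development and in Th1 cells, had 3 and 9, 6 and 7, 5 and 18, and 32 and 11 in the same order of groups. *Atf3*, a stress-responsive member, had 6 and 5, 6 and 10, 5 and 9, and 42 and 6. Both were at or under the floor in 5 of 8 libraries, their highest values (32 and 42) stood for 3 and 4 reads of CD70Tg Treg library 1, and neither reached the minimum for testing. No fold change was given for them, and a difference in these genes was not detectable at this depth.

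**Figure D2:**
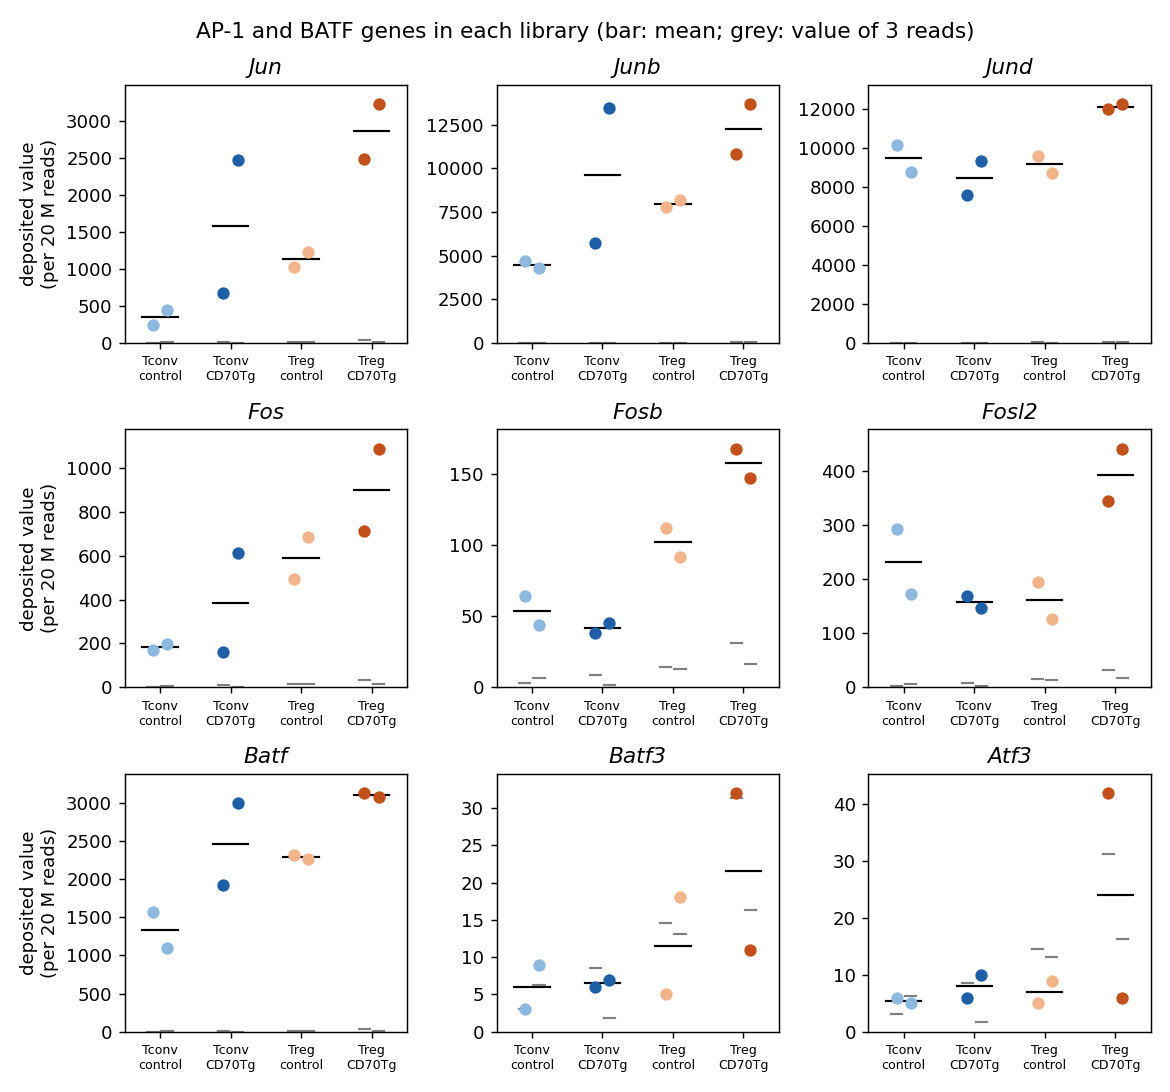
Deposited value (per 20 M reads, linear axes from 0) of each of the 9 genes in the 8 libraries, with points for libraries, black bars for the mean of 2 libraries and grey marks for the value of 3 reads in that library. The CD70Tg points of *Jun*, *Junb* and *Batf* lie above the control points in both subsets, *Fosl2* and *Jund* are highest in CD70Tg Tregs, and *Batf3* and *Atf3* lie near the grey marks.

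The first comparison asked which members differed between CD70Tg and control Tregs. *Jun* rose 2.52-fold (log2 1.33 ± 0.39 SE) and *Fosl2* rose 2.43-fold (log2 1.28 ± 0.29 SE). The test was limma on log2(value + 5) in 12816 genes with all 8 libraries in the fit, with Benjamini-Hochberg adjustment within each comparison and a threshold of 0.05, and fold changes are on that scale. The adjusted p-values by limma were 0.048 for *Jun* and 0.013 for *Fosl2*. The other 5 tested members had positive differences that did not pass: *Junb* 0.61 (adjusted p = 0.16), *Jund* 0.40 (adjusted p = 0.066), *Fos* 0.59 (adjusted p = 0.43), *Fosb* 0.61 (adjusted p = 0.33) and *Batf* 0.43 (adjusted p = 0.17). Of the 9 members, 7 could be tested. Of these, 2 were higher and 0 lower, where 3.94% of all tested genes were higher and 3.46% lower. The 5 differences that did not pass include 3 at an unadjusted p of 0.0057 (*Jund*), 0.026 (*Junb*) and 0.029 (*Batf*).

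In all 7 tested members, both CD70Tg Treg libraries were above both control Treg libraries, an order without overlap that 22.5% of all tested genes showed. The median log2 difference of the 7 was 0.61, and that of all tested genes -0.05. *Jun* stayed under the threshold with 7 of 16 alternatives and lost it when any Treg library was left out (adjusted p from 0.11 without control library 2 or CD70Tg library 1 to 0.26 without control library 1, and 0.23 without CD70Tg library 2). *Fosl2* stayed under it with 12 of 16 and lost it without control library 2 (log2 0.98, adjusted p = 0.14) or CD70Tg library 2 (log2 1.11, adjusted p = 0.095), while 4 members passed without either CD70Tg Tconv library, 5 when the Treg libraries were fitted alone and 0 by limma-voom on numbers of reads.

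In Tconvs, *Jun* rose 3.85-fold with CD70Tg (log2 1.95 ± 0.39 SE), *Junb* 1.96-fold (0.97 ± 0.25) and *Batf* 1.82-fold (0.87 ± 0.18). The adjusted p-values by limma were 0.0034, 0.019 and 0.0047. The differences of the other 4 tested members were 0.75 for *Fos* (adjusted p = 0.35), -0.16 for *Jund* (adjusted p = 0.57), -0.33 for *Fosb* (adjusted p = 0.7) and -0.50 for *Fosl2* (adjusted p = 0.4). Thus 3 of 7 tested members were higher and 0 lower, where 6.82% of all tested genes were higher and 1.99% lower. The same 3 members were those whose CD70Tg libraries were above the controls without overlap, as were 23.7% of all tested genes, and *Fosl2* was lower without overlap, as were 21.4% of all tested genes. The median over the 7 was 0.75, and over all tested genes 0.01.

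These calls rested on CD70Tg Tconv library 2. Without it, no member passed by limma, with log2 differences of 1.01 for *Jun* (adjusted p = 0.051), 0.36 for *Junb* (adjusted p = 0.22) and 0.55 for *Batf* (adjusted p = 0.1), and *Fos* turned to -0.21 (adjusted p = 0.79). Without library 1 of that group, *Fos* passed at 1.71 (adjusted p = 5.4e-04) and *Jun* reached 2.88. Without control Tconv library 2, *Jun* alone passed, with *Junb* at 0.91 (adjusted p = 0.083) and *Batf* at 0.61 (adjusted p = 0.07).

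The difference of the responses was tested as the Treg change minus the Tconv change. *Fosl2* passed, with a log2 difference of 1.78 ± 0.41 SE (adjusted p = 0.048 by limma), since it rose in Tregs and was 0.50 lower in Tconvs without passing there. Of all tested genes, 0.195% passed as higher in this comparison and 0.827% as lower. The other 6 tested members did not pass, and their 95% intervals on the log2 scale were -1.78 to 0.55 for *Jun*, -1.11 to 0.38 for *Junb*, 0.19 to 0.95 for *Jund*, -1.37 to 1.05 for *Fos*, -0.09 to 1.95 for *Fosb* and -0.98 to 0.11 for *Batf*. Hence *Junb* and *Batf*, which passed in Tconvs and not in Tregs, were not shown to respond differently. *Fosl2* stayed past the threshold with 6 of 15 alternatives, and its difference was 1.41 to 2.15 over all 15. It was lost without control Tconv library 1 (log2 1.41, adjusted p = 0.18), CD70Tg Tconv library 2 (1.69, 0.16), control Treg library 2 (1.48, 0.2), CD70Tg Treg library 1 (1.96, 0.08) or CD70Tg Treg library 2 (1.61, 0.14), and 3 members passed without CD70Tg Tconv library 1 (*Jun* at -1.55 and *Junb* at -0.98, adjusted p = 0.027 and 0.0083, beside *Fosl2*).

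**Figure D3:**
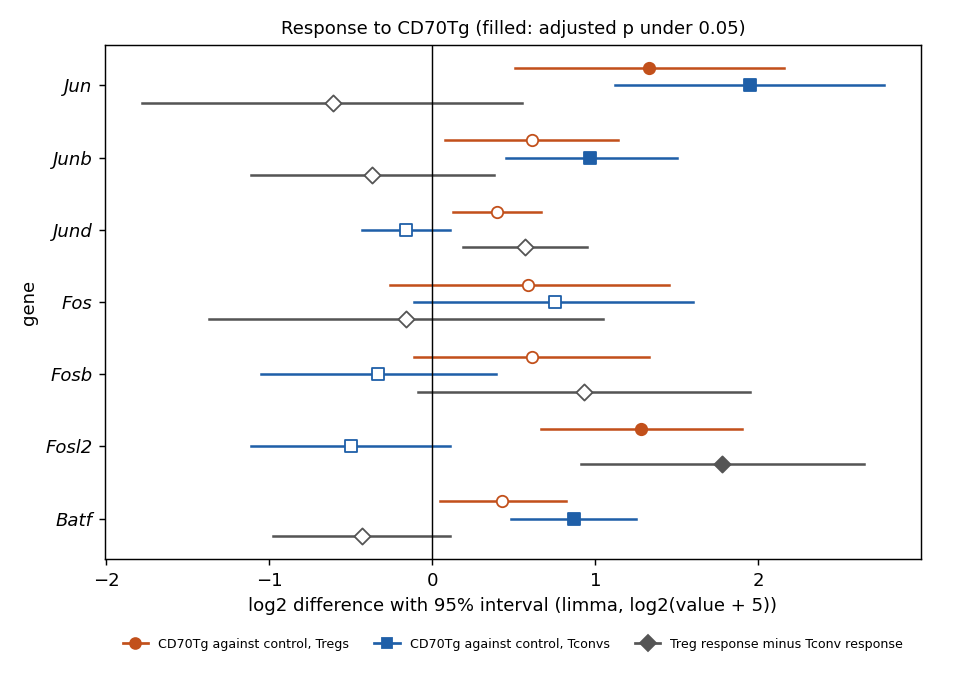
Log2 differences of the 7 tested genes by limma with 95% intervals (horizontal axis) for CD70Tg against control in Tregs (circles), in Tconvs (squares) and for the Treg response minus the Tconv response (diamonds), filled where the adjusted p is under 0.05. *Jun* is filled in both subsets, *Junb* and *Batf* in Tconvs, and *Fosl2* in Tregs and in the difference.

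Between the subsets, control Tregs had more *Jun* (3.35-fold, log2 1.74 ± 0.39 SE), *Fos* (3.1-fold, 1.63 ± 0.40), *Fosb* (1.83-fold, 0.87 ± 0.34), *Junb* (1.78-fold, 0.84 ± 0.25) and *Batf* (1.74-fold, 0.80 ± 0.18) than control Tconvs. The adjusted p-values by limma were 0.0018, 0.0037, 0.046, 0.012 and 0.0019 in this order. *Jund* (-0.04, adjusted p = 0.8) and *Fosl2* (-0.50, adjusted p = 0.17) did not pass. Of the 7 tested members 5 were higher and 0 lower, beside 27.5% of all tested genes higher and 18.4% lower. *Fosb* was lost when any of the 4 control libraries was left out, with an adjusted p of 0.061 without Tconv library 1, 0.29 without Tconv library 2, 0.2 without Treg library 1 and 0.089 without Treg library 2, and *Junb* without control Treg library 2 (adjusted p = 0.059).

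CD70Tg Tregs had more *Fosb* (3.5-fold, log2 1.81 ± 0.34 SE), *Fos* (2.78-fold, 1.47 ± 0.40), *Fosl2* (2.44-fold, 1.28 ± 0.29), *Jun* (2.19-fold, 1.13 ± 0.39) and *Jund* (1.44-fold, 0.52 ± 0.13) than CD70Tg Tconvs. The adjusted p-values by limma were 5.4e-04, 0.0079, 0.0022, 0.028 and 0.0038. *Junb* (0.47, adjusted p = 0.14) and *Batf* (0.37, adjusted p = 0.11) did not pass. Of all tested genes 22.6% were higher and 20.1% lower. Without CD70Tg Tconv library 1, *Jun* fell back to 0.20 (adjusted p = 0.59), *Fos* to 0.52 (adjusted p = 0.14) and *Junb* to -0.15 (adjusted p = 0.43), whereas without library 2 *Junb* passed at 1.09 (adjusted p = 4.7e-05) and *Batf* at 0.69 (adjusted p = 0.0063). *Jun* was also lost without CD70Tg Treg library 1 (adjusted p = 0.056) or 2 (adjusted p = 0.15), and *Fos* without CD70Tg Treg library 2 (adjusted p = 0.081). The Treg libraries were shallower than every Tconv library, so that subset and depth cannot be told apart. The 5 comparisons share their groups, and their values stand side by side without a test of overlap.

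The libraries of CD70Tg Tconvs differed from each other more than those of the other groups in 5 of the 7 tested members. On the log2 scale, library 2 minus library 1 was 1.91 for *Fos*, 1.87 for *Jun*, 1.23 for *Junb* and 0.64 for *Batf*, where the median absolute gap of all tested genes was 0.23. *Jund* was at 0.30. *Fosb* (0.22) and *Fosl2* (-0.19) were within the gaps of the other groups. In the other groups, the widest gaps were 0.86 for *Jun* and -0.75 for *Fosl2* in control Tconvs, -0.60 for *Fosl2* in control Tregs and 0.61 for *Fos* in CD70Tg Tregs. Library 2 of CD70Tg Tconvs held 33.28 M reads on genes and library 1 held 6.94 M. Mitochondrial genes made up 0.223% of the values in library 2 and 0.709% in library 1, and Malat1 0.00199 and 0.00723%. The mitochondrial share was 0.271 and 0.685% in control Tconvs and 0.785 to 0.963% in the Treg libraries. The part of depth and RNA make-up in these gaps was not tested.

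Because *Fos* and *Jun* are known to rise during sorting, 36 other immediate-early and handling-responsive genes were read in the same libraries, of which 33 were tested. In Tregs, 5 of them were higher with CD70Tg and 3 lower, with a median log2 difference of 0.03, beside 3.94% and 3.46% of all tested genes and a median of -0.05. Of those that passed, the 6 with the largest changes were *Nr4a2* (2.50), *Rhob* (0.79), *Dusp5* (0.77), *Btg2* (-0.57), *Cd69* (-0.56) and *Nfkbia* (0.54). In Tconvs, 8 were higher and 4 lower, with a median of 0.00 (6.82% and 1.99% of all tested genes, median 0.01), led among those that passed by *Nr4a2* (4.18), *Ier3* (2.82), *Socs3* (1.12), *Rhob* (1.06), *Cd69* (-0.89) and *Egr3* (-0.87). The difference of *Socs3* was 0.66 without control library 2 and that of *Cd69* -0.57 without CD70Tg library 2. The summed value of the 36 genes was 119774 to 127570 over the 8 libraries, and its ranges overlapped in all 4 groups, but abundant genes such as *Hspa8* (22632 to 29852) and *Btg1* (13165 to 20831) set most of it, so that it does not show changes in genes of low level such as *Nr4a2*. *Egr1*, an immediate-early gene chosen here after its values were seen, had 2946 and 1915 in control Tconvs, 1450 and 2076 in CD70Tg Tconvs, 2897 and 2680 in control Tregs, and 1808 and 2246 in CD70Tg Tregs, so that its CD70Tg values were not above the controls in Tregs. *Egr1* does not stand for the list, of which 5 genes passed as higher and 3 as lower in Tregs. The heat-shock genes *Hspa1a* and *Hspa1b* did not exceed 29 in any library. In Tregs such values lie about the floor of 13.1 to 31.3, so that a difference in these genes could not be read there.

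Within CD70Tg Tconvs, 23 of the 33 handling genes were higher in library 2 than in library 1, or 69.7%, beside 73.9% of all tested genes. Their median gap was 0.23 and that of all tested genes 0.17. The widest gaps in this list were 1.30 for *Ier3*, 1.13 for *Ier5l*, 1.00 for *Gadd45b*, 0.93 for *Ppp1r15a* and 0.88 for *Dusp1*, while *Cd69* (-0.64) and *Btg1* (-0.48) were lower in library 2. These genes were named after their values were seen. All gaps in the list were smaller than those of *Fos* and *Jun*. In control Tregs against control Tconvs, 14 of the 33 handling genes were higher and 5 lower with a median of 0.34, beside 27.5% and 18.4% of all tested genes and a median of 0.07, and in CD70Tg Tregs against CD70Tg Tconvs 13 were higher and 8 lower with a median of 0.27, beside 22.6% and 20.1% of all tested genes and a median of -0.02. The part of handling in the differences of *Fos* and *Jun* was not tested.

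**Figure D4:**
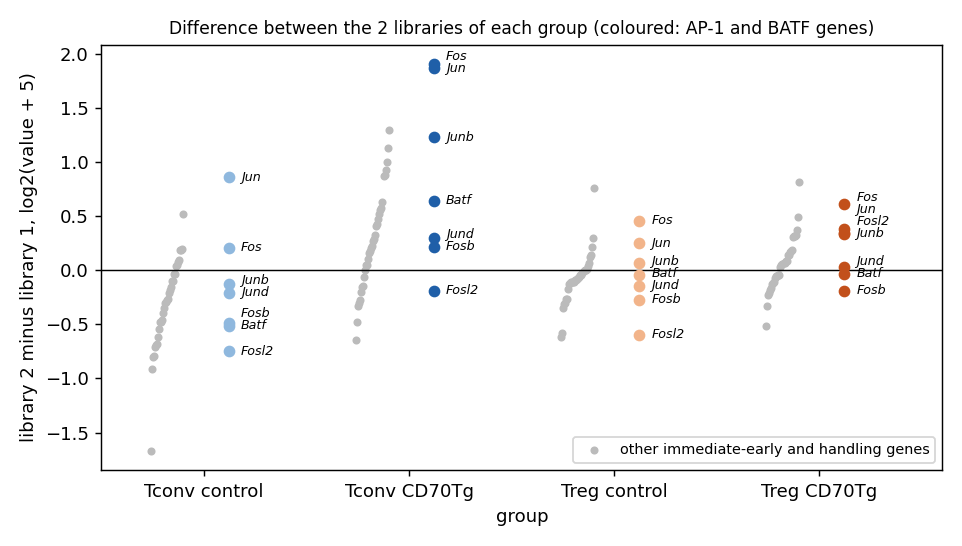
Library 2 minus library 1 on the log2(value + 5) scale (vertical axis) in each of the 4 groups, for the 7 tested AP-1 and BATF genes (coloured, named) and for 33 immediate-early and handling genes (grey). *Fos* (1.91) and *Jun* (1.87) of CD70Tg Tconvs lie above every grey point of that group, the highest of which is at 1.30.

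The partners of AP-1 and BATF on composite elements were read in 9 genes, all tested. *Irf8*, which binds DNA together with BATF, rose 2.89-fold in CD70Tg Tregs (log2 1.53 ± 0.21 SE, adjusted p = 2.5e-04 by limma) and 2.4-fold in CD70Tg Tconvs (1.26 ± 0.21, adjusted p = 7.3e-04). *Runx3*, a factor of type 1 T cells, rose 1.46-fold in Tregs (0.55 ± 0.12) and 1.63-fold in Tconvs (0.70 ± 0.12). *Irf4*, the other main IRF partner of BATF, had 808 and 413 in control Tconvs, 899 and 1045 in CD70Tg Tconvs, 2267 and 2194 in control Tregs, and 1484 and 1354 in CD70Tg Tregs. It rose 1.67-fold in Tconvs (0.74 ± 0.21, adjusted p = 0.04 by limma). That difference was 0.26 without control library 2 and 1.22 without control library 1. In Tregs *Irf4* was lower without passing (log2 -0.65, adjusted p = 0.077 by limma). The Treg response minus the Tconv response was -1.39 (adjusted p = 0.033 by limma), or -0.91 without control Tconv library 2. In all, 2 partners were higher and 0 lower in Tregs, and 3 were higher and 0 lower in Tconvs, with medians of -0.05 and 0.20. Of all tested genes, 3.94% were higher in Tregs and 6.82% in Tconvs, with medians of -0.05 and 0.01.

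Of the 26 other bZIP genes 25 were tested. In Tregs 0 were higher and 3 lower with CD70Tg by limma, namely *Cebpa* (log2 -2.64), *Bach2* (-0.68), a repressor that competes with AP-1 in T cells, and *Atf2* (-0.64). In Tconvs 2 were higher and 1 lower, namely *Jdp2* (1.87), a Jun-binding repressor, *Cebpb* (1.44) and *Cebpa* (-1.90). *Cebpa* had 389 and 70 in control and 35 and 48 in CD70Tg Tconvs, and its difference was -0.70 without control library 1 and -3.10 without control library 2. That of *Cebpb* was 0.86 without CD70Tg library 2. The medians were -0.06 and 0.01. Of all tested genes, 3.94% were higher and 3.46% lower in Tregs, and 6.82% and 1.99% in Tconvs. Of the 15 kinases that act on Jun and Fos proteins, with their upstream kinases, none passed in Tregs by limma, with 5 at an unadjusted p under 0.05, and *Map3k5* was higher in Tconvs (0.68, or 0.46 without control library 2). Of the 6 genes for SRF and its cofactors, which drive *Fos*, none passed in either subset by limma, with 2 in Tregs and 1 in Tconvs at an unadjusted p under 0.05. In Tregs, no kinase and no SRF gene was at or under the floor in any library.

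Genes linked with BATF or AP-1 in T cells were taken as a further list of 21, of which 18 were tested. Whether these genes depend on BATF or AP-1 in these cells was not tested. In Tregs 6 were higher and 0 lower with CD70Tg: *Ifng* (log2 1.67), *Klrg1* (1.49), *Tbx21* (1.28), *Rora* (0.70), *Prdm1* (0.67) and *Tnfrsf9* (0.61). Of all tested genes 3.94% were higher in this comparison. In Tconvs 11 were higher and 0 lower, led by the cytokine genes *Il10* (4.80) and *Ifng* (3.75), the inhibitory receptor *Klrg1* (3.58), the IL-33 receptor *Il1rl1* (2.92), *Tigit* (2.41) and *Prdm1* (2.04), which encodes BLIMP-1, where 6.82% of all tested genes were higher. *Il10* had 30 and 3 in control and 340 and 629 in CD70Tg Tconvs, and the 3 lies under the floor of 6.3 of that library, so that the size of its difference depends on the pseudocount. *Tigit* had 1274 and 360 in control and 3037 and 4315 in CD70Tg Tconvs, so that its difference was smaller without control library 2. The medians were 0.53 in Tregs and 1.10 in Tconvs. The Treg response was smaller than the Tconv response in 5, with differences of -3.72 for *Il10*, -2.45 for *Il1rl1*, -2.09 for *Klrg1*, -1.38 for *Prdm1* and -1.05 for *Ctla4* (-0.70 without library 2 of the CD70Tg Tconvs), where 0.827% of all tested genes were lower. In CD70Tg Tconvs, 17 of the 18 were higher in library 2 than in library 1, or 94.4%, with a median gap of 0.68, beside 73.9% of all tested genes with a median gap of 0.17. The list was made with earlier results of these data known, and its counts are no independent evidence of direction.

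Genes whose pattern was most like that of a member were taken by Pearson correlation of log2(value + 5) over the 8 libraries, which share groups and depth. For *Jun* these were its antisense neighbour *Junos* (r = 0.996), *Ube2c* (0.983), *Phf11a* (0.979), *Tpx2* (0.978) and *Rbbp8* (0.977). *Ube2c*, a gene of mitotic exit, had 82 and 101 in control Tconvs, 170 and 362 in CD70Tg Tconvs, 180 and 211 in control Tregs, and 450 and 430 in CD70Tg Tregs. For *Batf* they were *Syt11* (0.991), *Sdcbp2* (0.991), *Vars* (0.990), *Jdp2* (0.989) and *Mapkapk2* (0.987). *Syt11* had 1665 and 1172, 2642 and 4050, 3222 and 3100, and 4274 and 4486 in the same order of groups. For *Fos* they were *Sdccag8* (0.985), *Ocel1* (0.984), *Gm9917* (0.979), *Txlng* (0.970) and *Ptdss2* (0.969). *Sdccag8* spanned 304 to 550 while *Fos* spanned 159 to 1088, so that the likeness is one of a linear relation on the log scale and not of size of change. No match was sought for *Batf3*, which did not reach the minimum for testing.

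Markers of other cell types moved with CD70Tg, and fewer cells of a type and less RNA per cell cannot be told apart in these bulk libraries. In Tregs, the summed value of 6 neutrophil markers was 5 to 19 in controls and 233 to 259 with CD70Tg, that of 5 erythroid markers 566 to 1583 and 2406 to 4014, that of 7 dendritic cell markers 109 to 156 and 378 to 410, and that of 8 macrophage and monocyte markers 9397 to 9816 and 11968 to 12678. The last sum rested mostly on *Ctss*, with 5595 and 5040 in control and 6949 and 8031 in CD70Tg Tregs. Beside 3.94% of all tested genes higher and 3.46% lower, 2 of its 7 tested genes were higher, *Ctss* and *Itgam* (146 and 198 against 377 and 381, adjusted p = 0.013 by limma), and 1 lower, since *Csf1r* fell from 1500 and 1205 to 930 and 762 (adjusted p = 0.029 by limma). In Tconvs, dendritic cell markers summed to 76 to 147 in controls and 195 to 347 with CD70Tg. Most of the dendritic cell increase was *Zbtb46* in Tregs (25 and 27 in control, 209 and 191 in CD70Tg libraries) and *Itgax* in Tconvs (31 and 57, then 101 and 236). Among macrophage and monocyte markers of Tconvs, *Cd68* rose 4.07-fold (79 and 51 in controls, 245 and 306 with CD70Tg, adjusted p = 1.1e-04 by limma) and *Itgam* fell (178 and 166 to 93 and 80, adjusted p = 0.027). In Tconvs the CD8 genes *Cd8a* and *Cd8b1* summed to 681 to 720 in controls and 1563 to 1590 with CD70Tg. In Tregs the CD8 genes summed to 317 to 417 in controls and 631 to 660 with CD70Tg, and *Cd8a* rose 5.17-fold there (adjusted p = 0.0012 by limma). NK cell markers summed to 417 to 444 and 81 to 88 in Tconvs, and to 36 to 64 and 0 to 11 in Tregs. This sum is nearly that of *Klrb1c* alone (403 and 423 in control and 75 and 68 in CD70Tg Tconvs), and *Ncr1* and *Klra8* did not exceed 2 in any library. B cell markers summed to 177 to 526 over the 8 libraries, plasma cell markers to 24 to 74, and mast cell and basophil markers to 11 to 36. Above the floor were 0 of 6 neutrophil markers in both control Treg libraries and 2 and 4 in the CD70Tg Treg libraries, and 2 and 4, then 3 and 5, of 7 dendritic cell markers. No listed marker was at 0 in every library. Between CD70Tg Tregs and CD70Tg Tconvs, 5 of 7 tested macrophage and monocyte markers, 5 of 5 erythroid markers, 2 of 3 B cell markers, the neutrophil gene *S100a9* and the dendritic cell gene *Zbtb46* were higher in Tregs. The B cell gene *Cd22*, the NK gene *Klrb1c* and both CD8 genes were lower. Of all tested genes 22.6% were higher and 20.1% lower in this comparison. The part of these cells in the differences of *Jun*, *Fosl2* and the other members was not tested.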

How the data were processed

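Per the labels and the study's methods, spleen CD4+ cells were sorted (200000 cells per library), and the authors trimmed the reads with Trimmomatic 0.36, mapped them to mm10 with STAR 2.5.3 and counted them with HTSeq 0.9.1. Strand setting and annotation release are not given in the sources used here. The deposited score values are these counts, brought by the authors to 20 M reads in each library, then rounded up. Control columns are named KO in the table and were taken as CD27+/-. No column was left without a group.

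Here 4131 rows with clone-derived names were excluded, as their low values follow the step of another library, and 97 names on several rows went to the row with the largest total. The 12816 genes that reached 60 in 2 or more libraries were tested with limma 3.58.1 in R 4.3.3 on log2(value + 5), with a trend and a coefficient for each of 4 groups, and the test was run first on simulated data. A count test does not suit scaled values, and limma-voom on recovered reads was an alternative. Low values show no gaps in the deepest library, so that its number of reads is less certain. Every member is named with its 8 values. Of each list, at most 6 genes that passed are named per comparison, by size of change, and 1 gene of these is not reported here. The members and lists were chosen with earlier results of these data known. Positions are from GENCODE M21, which holds 99.7% of the gene identifiers, and promoters from RefSeq (9 of 9 members matched). Differences of listed genes without 1 library were added after the data were seen, as values with no test.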

Additional observations from a re-analysis of the deposited data

Results flagged for a closer look

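*Fosl2* was the member whose responses to CD70Tg differed between the subsets by the test of the difference itself, with a Treg response minus Tconv response of 1.78 on the log2 scale (SE 0.41, adjusted p = 0.048 by limma). Both CD70Tg Treg libraries (345 and 441) were above both controls (195 and 127), and both CD70Tg Tconv libraries (168 and 147) below both controls (292 and 172), orders without overlap that 22.5% of all tested genes showed as higher in Tregs and 21.4% as lower in Tconvs. It rested on 29 and 40 reads in the control Tregs and 33 and 81 reads in the CD70Tg Tregs. Groups of 2 libraries were too small for a check of single libraries far from the rest.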

How the results depend on the processing

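Of 84 counts of members over alternatives, 52 stayed within 1.5 times the reported count and 32 did not. Of 553 log2 differences of single members, 481 kept direction and side of the threshold, 50 lost it, 13 gained it and 9 reversed. The counts reported were 2 members in Tregs, 3 in Tconvs, 1 for the difference of responses, 5 between control subsets and 5 between CD70Tg subsets. With no minimum value these became 0, 0, 0, 1 and 3, and by limma-voom 0, 3, 0, 4 and 3. With a pseudocount of 1, Tregs gave 1 and the difference 0. Tregs gave 1 with a mean of at least 60 and 5 when fitted alone. The difference gave 0 with median-of-ratios scaling. With an absolute log2 fold change over 1, Tconvs gave 1 and the control subsets 2. Leaving out 1 library at a time, the counts ranged from 0 to 4 in Tregs, 0 to 4 in Tconvs, 0 to 3 for the difference, 3 to 5 between control subsets and 3 to 7 between CD70Tg subsets. Over the same omissions, reversed differences ranged from -0.15 to 0.06 for *Jund* between control subsets, -0.15 to 1.09 for *Junb* between CD70Tg subsets, -0.21 to 1.71 for *Fos* in Tconvs, and, for the difference of responses, -1.55 to 0.32 for *Jun*, -0.98 to 0.25 for *Junb* and -1.11 to 0.80 for *Fos*. Where the omission left a group with 1 library, that library was assumed to vary like the others. Some alternatives held fewer libraries or another set of genes, and others changed only the pseudocount, scaling, model or fold threshold. The causes of the changes were not tested. Depth limits *Batf3* and *Atf3*, with at most 16 reads in any library. No paired analysis was possible because the columns of the table carry no replicate numbers that match the samples, so that the planned replicate block was not run.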

Other observations

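Of 25 tested bZIP genes, 12 were higher and 3 lower in control Tregs than in control Tconvs by limma, where 27.5% of all tested genes were higher and 18.4% lower. The shares of partners and kinases lay nearer to these. *Nfil3* (log2 3.15), *Maf* (2.21), *Cebpb* (1.63) and *Cebpa* (1.60, between 0.41 and 2.80 with either control Tconv library left out) were higher, and *Nfe2l2*, the regulator of the antioxidant response, was lower (-1.95). Among 9 partners 3 were higher and 2 lower, with *Nfat5* (2.31), *Irf4* (1.94) and *Irf8* (1.35) above and *Runx3* (-0.59) and *Ets1* (-0.48) below. Of 15 kinases 5 were higher, among them *Map3k5* (1.09) and *Mapk9* (0.82), the latter encoding JNK2, and 3 lower, among them *Map3k14* (-1.16), which encodes NIK. Of 6 SRF and cofactor genes 3 were higher and 1 lower, with *Mkl2* at 0.71 and *Mkl1* at -0.40 (-0.26 without control Tconv library 1). Of 18 tested genes of the list linked with BATF or AP-1, 14 were higher and 3 lower, with a median of 3.09 beside 0.07 over all tested genes. The 14 include *Ctla4* and *Tnfrsf18*, which were also used here as markers of Tregs. Since the subsets were sorted by the Foxp3 reporter, this count cannot be read as a result about BATF or AP-1.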
